A study of Rattus norvegicus with 36 samples.

Results

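Dentate granule cells are the principal neurons of the dentate gyrus, the hippocampal field through which input from the cortex enters. This account follows 5 genes used as their markers, Prox1, Dsp, C1ql2, Tdo2 and Calb1, taken by gene name from the 4 regional count tables, which hold 26142 genes between them. All 5 names were found in each of the 4 tables. The samples were RNA sequencing libraries of Rattus norvegicus brain, all taken 6 weeks after blast or sham exposure. There were 5 blast and 5 sham libraries of hippocampus, 5 blast and 4 sham of amygdala, 3 blast and 5 sham of anterior cortex, and 5 blast and 4 sham of cerebellum. The sources used here give neither the strain, sex or age of the rats nor how strong or how often repeated the blast was. Libraries are named by treatment and by the number in their label, and the same numbers recur in different regions. The label of hippocampus blast 6 alone among the 36 ends in "re", a suffix whose meaning the labels do not explain. Because nothing states that each number is 1 animal, p-values here measure the spread between libraries, part of which may be technical.

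Granule cells send unmyelinated axons, the mossy fibres, to pyramidal cells of field CA3, and they are among the few neurons of the mammalian brain that go on being born in adult life. Prox1 is a homeobox transcription factor that sets and keeps granule cell identity. C1ql2 is a secreted protein with a C1q domain that, in mouse, granule cells release at mossy fibre synapses, where it binds kainate receptors. Calb1, calbindin, buffers calcium in mature granule cells and is also abundant in Purkinje cells of the cerebellum. Dsp, desmoplakin, links desmosomes to intermediate filaments in epithelia and is enriched in the granule cell layer of the mouse. Tdo2 opens the kynurenine pathway of tryptophan breakdown, mostly in liver, and marks granule cells in mouse.

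The deposited tables place Prox1 (ENSRNOG00000003694) at chr13:108382399-108443294 on the plus strand and C1ql2 (ENSRNOG00000046863) at chr13:36378356-36380302 on the plus strand. They place Calb1 (ENSRNOG00000007456) at chr5:29538380-29562773 on the plus strand. Dsp (ENSRNOG00000013928) lies at chr17:27286796-27334379 and Tdo2 (ENSRNOG00000011612) at chr2:180897011-180914940, both on the minus strand. All 5 are protein-coding whole-gene entries, and the sources used here name no genome build for these coordinates.

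The promoters of C1ql2, the member with the widest range between regions, and of Tdo2, the member with almost no reads, are shown for contrast. Each is the 250 bases before the gene's start in the RefSeq table of build GRCr8, at chr13:34023652-34023901 (plus strand) and chr2:169585587-169585836 (minus strand), and capitals mark a TATAAA match.
C1ql2: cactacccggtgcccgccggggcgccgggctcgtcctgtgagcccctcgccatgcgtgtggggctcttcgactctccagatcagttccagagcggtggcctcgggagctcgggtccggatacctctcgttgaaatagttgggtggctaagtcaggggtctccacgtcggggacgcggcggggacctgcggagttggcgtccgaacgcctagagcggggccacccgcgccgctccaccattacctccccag
Tdo2: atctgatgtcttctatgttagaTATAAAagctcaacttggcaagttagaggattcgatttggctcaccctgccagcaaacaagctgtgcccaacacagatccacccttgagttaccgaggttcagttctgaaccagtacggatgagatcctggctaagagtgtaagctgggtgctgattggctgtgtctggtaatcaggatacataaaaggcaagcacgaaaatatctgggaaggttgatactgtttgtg
The C1ql2 window was 68.8% G and C and the Tdo2 window 45.2%, against a median of 51.2% over the promoters of the table. Both strands were searched for the E box CANNTG, its form CAGCTG, the TATA box TATAAA and the cyclic AMP response element TGACGTCA, where CAGCTG is one form of CANNTG. Neither window held an E box or the response element, and Tdo2 held 1 TATAAA. Of 33465 promoters of this length, 65.55% held CANNTG, 11.97% CAGCTG, 12.93% TATAAA and 1.59% TGACGTCA.

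Libraries held 15426786 to 23460322 reads counted on genes, and in all 65 pairs of libraries within a group the counts differed by more than sampling noise, the lowest ratio of chi-square to its degrees of freedom being 6.02. Some libraries stood apart in markers of adjoining tissue. In hippocampus, blast 6 had 7475 CPM (counts scaled to the library's total) of Ttr, the transthyretin gene that defines choroid plexus, and blast 2 had 2267 CPM. The other 8 hippocampus libraries had 2.05 to 461 CPM. Blast 6 also had 12917 CPM of the myelin gene Mbp, where the other 9 had 3747 to 5387 CPM. Fibcd1, a marker of CA1 pyramidal cells, was at 12.8 CPM in hippocampus sham 13 and 9.08 CPM in sham 18 but at 0.118 to 0.619 CPM in the other 8 hippocampus libraries. It thus went against its use as a marker of the tissue in those 8. In amygdala it was at 10.4 CPM in sham 13, 3.96 CPM in sham 18 and 3.47 CPM in blast 1, and at 0.0528 to 0.240 CPM in the other 6 libraries.

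The question of the hippocampal comparison was whether granule cell markers differed between blast and sham 6 weeks on. The means of the 4 markers with enough reads to test were lower in blast libraries, at log2 fold changes of -0.12 to -0.55. None passed the test, and blast and sham overlapped for every one. Over the fits that left out 1 library, the difference of Dsp changed the least of the 4 relative to its size, and for Prox1, C1ql2 and Calb1 much of the difference lay in blast 6. In bulk tissue, fewer granule cells and less of an RNA in each cell cannot be told apart.

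**Figure D1:**
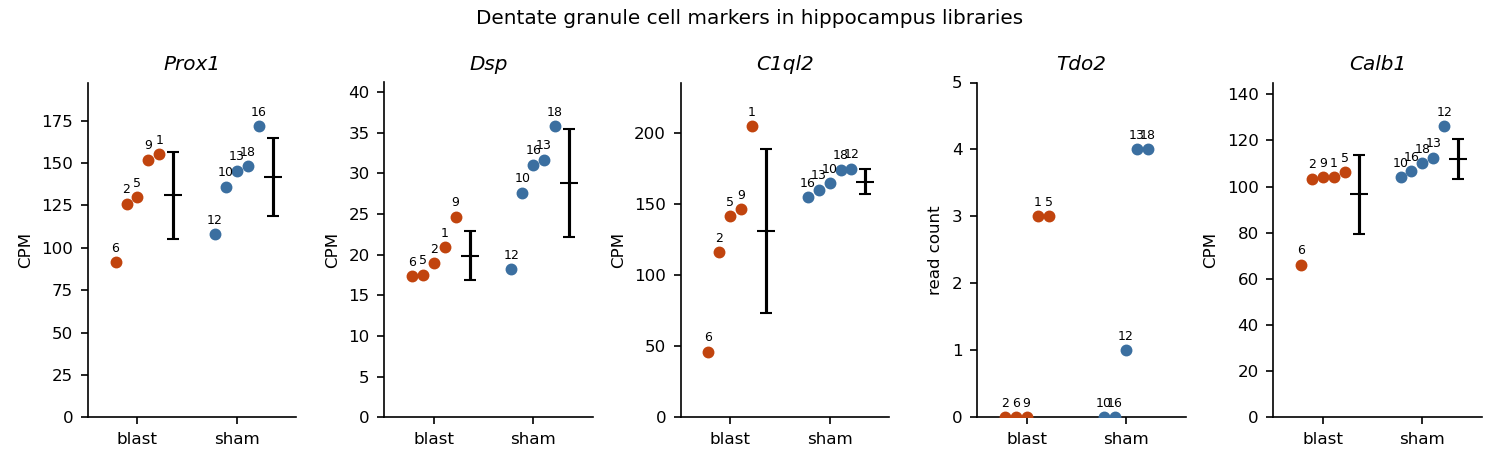
Each panel plots one marker in the 5 blast and 5 sham hippocampus libraries, in CPM from 0, or in reads for Tdo2; points carry the library's number, and the bars beside them are mean and SD (none for Tdo2). Blast 6 is the lowest point in the Prox1, Dsp, C1ql2 and Calb1 panels, and blast and sham overlap in all 5.

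Dsp had 20.9, 19.0, 17.5, 17.3 and 24.7 CPM in blast libraries 1, 2, 5, 6 and 9, against 27.6, 18.2, 31.6, 31.0 and 35.8 CPM in sham libraries 10, 12, 13, 16 and 18. All 5 blast libraries lay below 4 of the sham libraries, and sham 12 alone lay among the blast values. The share of all genes split this way was not counted. The mean was 19.9 ± 3.03 CPM in blast and 28.9 ± 6.63 CPM in sham (SD, n = 5 each). By edgeR's quasi-likelihood test the log2 fold change was -0.55 (SE 0.17, adjusted p = 0.816 over 15349 genes), and Dsp ranked 76 of these genes by p. The authors' deposited table gives Dsp a log2 fold change of -0.37, a p of 0.00196 and an adjusted p of 0.907. Leaving out any 1 library left the log2 fold change between -0.45 and -0.68, the largest difference being without sham 12. Without blast 6 it was -0.49 (SE 0.17).

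C1ql2 had 204, 116, 141, 46.2 and 146 CPM in blast libraries 1, 2, 5, 6 and 9, against 164, 174, 160, 155 and 174 CPM in sham libraries 10, 12, 13, 16 and 18. Sham libraries were close together, while 4 blast libraries lay below all of them and blast 1 lay above all of them. The coefficient of variation was 43.8% in blast and 5.29% in sham, and 24.6% in blast without blast 6. The mean was 131 ± 57.3 CPM in blast and 165 ± 8.76 CPM in sham (SD, n = 5 each). The log2 fold change was -0.34 (SE 0.28, edgeR adjusted p = 0.817). It was -0.12 (SE 0.13) without blast 6 and -0.56 (SE 0.27) without blast 1, so either library moved it by more than 1.5 times.

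Calb1 had 104, 103, 106, 66.1 and 104 CPM in blast libraries 1, 2, 5, 6 and 9, against 104, 126, 112, 107 and 110 CPM in sham libraries 10, 12, 13, 16 and 18. Blast libraries 1, 2, 5 and 9 were almost identical and blast 6 stood well under them. The mean was 96.7 ± 17.1 CPM in blast and 112 ± 8.59 CPM in sham (SD, n = 5 each), a log2 fold change of -0.22 (SE 0.13, edgeR adjusted p = 0.816). Without blast 6 the blast mean was 104 ± 1.28 CPM (SD, n = 4) and the log2 fold change -0.10 (SE 0.06). For Calb1 and for C1ql2 alike, 4 of 5 blast libraries lay under every sham library, as did at least 4 for 2.33% of the 14494 genes with a mean of 1 CPM or more. For Calb1 the margin was narrow, blast 1 at 103.93 CPM lying just under sham 10 at 104.05 CPM.

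Prox1 had 155, 126, 130, 91.5 and 152 CPM in blast libraries 1, 2, 5, 6 and 9, against 136, 108, 145, 172 and 148 CPM in sham libraries 10, 12, 13, 16 and 18. Only blast 6 lay under the sham range. The mean was 131 ± 25.6 CPM in blast and 142 ± 23.0 CPM in sham (SD, n = 5 each). The log2 fold change was -0.12 (SE 0.16, edgeR adjusted p = 0.859), and without blast 6 it was -0.0062 (SE 0.12).

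Tdo2 had 3, 0, 3, 0 and 0 reads in blast libraries 1, 2, 5, 6 and 9, against 0, 1, 4, 0 and 4 reads in sham libraries 10, 12, 13, 16 and 18. These values are at or near the 3 reads taken as the floor, which equal 0.128 to 0.194 CPM over the 36 libraries, so Tdo2 was not tested and no fold is given. A difference in Tdo2 was not detectable at this depth.

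Over all genes, edgeR called 0 of 15349 in hippocampus (0%), with 805 at an unadjusted p under 0.05, and DESeq2 also called 0. None of the 4 tested markers was called. CPM of blast and sham did not overlap for 0.847% of tested genes, and the markers were not among them.

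Blast 6 had the lowest value of the 10 hippocampus libraries for 4 of the 4 markers above the floor, and for 21.5% of the genes with a mean of 1 CPM or more. It was not low by the same proportion for each. Relative to the median of the other 9 libraries, C1ql2 was at 0.289 times, Calb1 at 0.623 times, Prox1 at 0.629 times and Dsp at 0.702 times. The summed CPM of the list of other granule cell markers was at 0.565 times and that of the excitatory neuron list at 0.593 times. The myelin list was at 2.50 times and the choroid plexus list at 61.3 times. Hence Prox1 and Calb1 were as low in blast 6 as general excitatory neuron genes, and C1ql2 was lower than these.

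**Figure D2:**
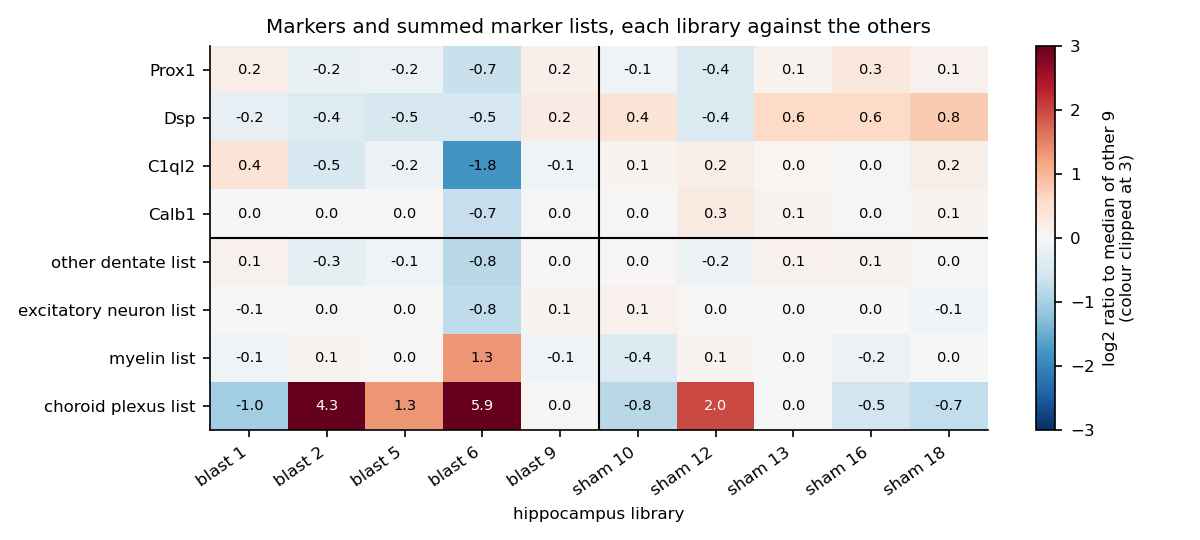
Rows are the 4 markers above the floor and 4 summed marker lists, columns the 5 blast and then the 5 sham hippocampus libraries, and each cell gives the log2 ratio of a library to the median of the other 9. In blast 6 C1ql2 stands at -1.79 and the other 3 markers between -0.51 and -0.68, beside a myelin list at 1.32 and a choroid plexus list at 5.94.

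Markers of other tissue also differed, most of all in blast 6. Their part in the values of the granule cell markers was not tested beyond the fits given below. Sham 12 had a choroid plexus sum of 693 CPM and the highest Calb1, at 126 CPM. Relative to the median of the other 9 libraries, its C1ql2 was at 1.13 times, Prox1 at 0.744 times and Dsp at 0.737 times. Its list of other granule cell markers was at 0.895 times. Blast 2 had a choroid plexus sum of 3585 CPM, with Calb1 at 0.973 times and C1ql2 at 0.727 times the median of the other 9 libraries. In blast 2 Prox1 was at 0.867 times, Dsp at 0.769 times and the list of other granule cell markers at 0.835 times. Of the choroid plexus list, 9 of 9 tested genes were higher in blast hippocampus with 0 called, and its summed level ran from 88.1 to 10787 CPM in blast and from 102 to 693 CPM in sham. All 6 myelin genes were higher, with 0 called and sums of 8397 to 22693 CPM in blast and 6812 to 9634 CPM in sham. Of 9 tested meningeal and fibroblast genes, 7 were higher and 2 lower, with 0 called. Their sums ran from 62.3 to 641 CPM in blast and from 58.1 to 111 CPM in sham, and their part in the hippocampal Dsp values was not tested. All 5 excitatory neuron genes were lower, with 0 called and sums of 3708 to 6526 CPM in blast and 5954 to 6722 CPM in sham. Ttr and Mbp were above 0 in all 10 libraries. When the choroid plexus score entered the fit as covariate, the log2 fold change of Dsp was -0.34 (SE 0.16) and that of C1ql2 -0.04 (SE 0.21). In that fit Calb1 was at -0.12 (SE 0.13), and Prox1 changed sign to 0.12 (SE 0.10). When blast 2 and blast 6 were both left out, a check chosen after seeing the data, Dsp was at -0.45 (SE 0.19), Calb1 at -0.09 (SE 0.07), C1ql2 at -0.0070 (SE 0.11) and Prox1 at 0.04 (SE 0.12).

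The markers were also compared with each other within each library. The ratio of Dsp to Prox1 was 0.135 to 0.189 in blast and 0.168 to 0.241 in sham libraries, so the ranges overlapped. The ratio of C1ql2 to Prox1 was 0.505 to 1.32 in blast and 0.900 to 1.61 in sham, with blast 6 at the low end. For Calb1 to Prox1 it was 0.669 to 0.819 in blast and 0.621 to 1.17 in sham, sham 12 being at the high end.

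None of the wider set of granule cell genes was called. Counts and medians of lists use all hippocampus libraries and were not repeated without blast 6, so an extreme library can carry them. The list of other granule cell markers summed to 267 to 508 CPM in blast and 423 to 503 CPM in sham, with blast 6 lowest. Of 9 tested genes in the list of other granule cell markers, 6 were lower and 3 higher in blast hippocampus, with 0 called and a median log2 fold change of -0.20, beside a median of 0.0023 over all tested genes. Trpc6, a cation channel gene with the smallest p of that list, was at -0.30 (SE 0.15, edgeR adjusted p = 0.816). In the list of mossy fibre synapse genes and C1q-like partners, 8 of 9 were lower with a median of -0.18 and 0 called, and Sv2c, a synaptic vesicle protein, was at -0.36 (SE 0.19, adjusted p = 0.816). The sums of this list ran from 537 to 889 CPM in blast and from 831 to 901 CPM in sham. C1ql3 and Pdyn are in both lists.

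Genes of newborn granule cells did not share that direction, with 7 of 10 higher, a median of 0.11 and 0 called. Their mean log2 CPM, with 0.5 CPM added, ran from 2.50 to 3.26 over blast libraries, with a median of 2.69. In sham libraries it ran from 2.48 to 2.69, with a median of 2.63. The sums of these genes ran from 117 to 143 CPM in blast and from 117 to 139 CPM in sham. The one of smallest p was Igfbpl1, a marker of young neurons, at 1.46 (SE 0.57, edgeR adjusted p = 0.816). Field markers of the pyramidal layers were also lower on balance: 4 of 5 for CA1 with a median of -0.23, and 4 of 5 for CA2 with a median of -0.14, again with 0 called. CA1 sums ran from 508 to 803 CPM in blast and from 664 to 985 CPM in sham. For CA3, 2 of 4 were lower, with a median of -0.02 and 0 called. The shift was not particular to granule and pyramidal cells. Of the interneuron genes, 7 of 8 were lower, with a median of -0.18. All 8 microglia, all 6 astrocyte and all 5 endothelium genes tested were higher, with medians of 0.22, 0.06 and 0.11. In each of these lists 0 genes were called.

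Lists built around the markers' own functions were also counted in hippocampus. Of 7 tested desmosome genes other than Dsp, 5 were higher in blast with a median of 0.18, and plakoglobin, Jup, was at 0.11 (SE 0.07, edgeR adjusted p = 0.816). Of 9 EF-hand calcium binding proteins, the family of calbindin, 6 were lower with a median of -0.03, and calretinin, Calb2, was at 0.61 (SE 0.34, adjusted p = 0.816). Of 6 tested kynurenine pathway genes, 5 were higher with a median of 0.12, and Aadat, which makes kynurenic acid, was at 0.27 (SE 0.17, adjusted p = 0.816). In each of the 3 lists 0 genes were called. Desmosome sums ran from 524 to 757 CPM in blast and from 455 to 558 CPM in sham. Kynurenine pathway sums ran from 42.1 to 59.2 CPM in blast and from 36.6 to 44.9 CPM in sham.

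Outside hippocampus, no marker passed the test either. In amygdala edgeR called 0 of 15884 genes (0%), with 829 at an unadjusted p under 0.05 and 10 called by DESeq2. In anterior cortex it called 1 of 15765 (0.00634%), and in cerebellum 0 of 15225 (0%), with 1038 at an unadjusted p under 0.05 and 41 called by DESeq2. None of these was a marker followed here. Blast and sham values of every marker overlapped in the 3 regions, where they did not overlap for 1.6%, 3.84% and 2.4% of tested genes in amygdala, anterior cortex and cerebellum.

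The mean of Calb1 was lower in blast in all 4 regions, but in cerebellum the difference was near 0. There its sign reversed in 2 of the 9 fits that left out 1 library. The share of all genes with the same sign in every region was not counted. Because the regions share library numbers, they may not be independent. In anterior cortex it had 58.2, 49.2 and 50.8 CPM in blast libraries 1, 5 and 6, against 66.1, 63.6, 51.8, 82.0 and 60.9 CPM in sham libraries 10, 12, 13, 16 and 18. Blast 5 and blast 6 lay under every sham library and blast 1 within the sham range, a split not counted over all genes. Its log2 fold change there was -0.30 (SE 0.12, edgeR adjusted p = 0.842), which ranked 544 of 15765 genes by p. In amygdala Calb1 had 129, 126, 127, 104 and 98.3 CPM in blast libraries 1, 2, 5, 6 and 9, against 132, 148, 128 and 111 CPM in sham libraries 12, 13, 16 and 18. Blast 6 and blast 9 lay under the sham range. These were the amygdala libraries with the most Mbp and Ttr: blast 6 had 3858 CPM of Mbp, where the other 8 had 1528 to 2489 CPM, and blast 9 had 1602 CPM of Ttr, where the other 8 had 1.92 to 16.03 CPM. All 9 tested choroid plexus genes were higher in blast amygdala, with 0 called and sums of 66.1 to 2514 CPM in blast and 69.5 to 88.6 CPM in sham. Calb1 had a log2 fold change of -0.15 in amygdala (SE 0.09, edgeR adjusted p = 0.901), and of -0.11 (SE 0.09) when the choroid plexus score was a covariate. The 6 oligodendrocyte and myelin genes were all higher in blast amygdala, with 0 called, and their part in the Calb1 values was not tested. In cerebellum it had 651, 729, 589, 658 and 710 CPM in blast libraries 1, 2, 5, 6 and 9, against 676, 629, 749 and 635 CPM in sham libraries 10, 13, 16 and 18, and the log2 fold change was -0.01 (SE 0.08, edgeR adjusted p = 0.982).

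Prox1 differed most in cerebellum, where it is known from granule cells of that region too. It had 56.8, 62.1, 55.0, 56.3 and 59.2 CPM in blast libraries 1, 2, 5, 6 and 9, against 45.3, 47.9, 49.7 and 58.4 CPM in sham libraries 10, 13, 16 and 18. Sham libraries 10, 13 and 16 lay under every blast library and sham 18 among the blast values, a split not counted over all genes. This gave a log2 fold change of 0.20 (SE 0.075, edgeR adjusted p = 0.690), ranked 495 of 15225 genes by p. It stayed between 0.15 and 0.28 over the fits that left out 1 library, the largest being without sham 18. In amygdala Prox1 was at 0.05 (SE 0.17, adjusted p = 0.971) and in anterior cortex at 0.01 (SE 0.18, adjusted p = 0.992).

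C1ql2 was scarce in anterior cortex, with 1.39, 3.05 and 2.65 CPM in blast libraries 1, 5 and 6, against 1.36, 1.37, 1.88, 1.62 and 0.568 CPM in sham libraries 10, 12, 13, 16 and 18. Blast 5 and blast 6 lay above every sham library and blast 1 among them, a split not counted over all genes. These values rest on 25 to 53 reads in blast and 9 to 36 reads in sham libraries. Blast 5 and blast 6 also had the higher meningeal and fibroblast sums of the blast libraries, at 378 and 392 CPM, with 115 CPM in blast 1 and 113 to 412 CPM in sham, and their part in the C1ql2 values was not tested. The resulting log2 fold change was 0.78 (SE 0.38, edgeR adjusted p = 0.842), ranked 1142 of 15765 genes by p. In amygdala it was -0.07 (SE 0.21, adjusted p = 0.970) and in cerebellum 0.03 (SE 0.31, adjusted p = 0.992).

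Dsp was higher in blast means of amygdala and anterior cortex, at log2 fold changes of 0.17 (SE 0.26, edgeR adjusted p = 0.942) and 0.34 (SE 0.26, adjusted p = 0.855). In amygdala the value was 0.50 without sham 13, the library with the most Dsp of that region at 6.85 CPM. Amygdala sham 13 was also the highest of the 4 sham libraries for Prox1, C1ql2 and Calb1, at 30.3, 37.4 and 148 CPM. It was the highest sham library for the list of other granule cell markers too, with a sum of 231 CPM where the other 3 had 213 to 219 CPM. Its meningeal and fibroblast sum was 606 CPM, where the other 3 had 294 to 363 CPM, and its Col1a1, a collagen gene of fibroblasts, 94.5 CPM, where they had 42.5 to 49.9 CPM. Of the 9 meningeal genes, 6 were higher in blast amygdala, with 0 called and sums of 263 to 740 CPM in blast and 294 to 606 CPM in sham. In anterior cortex 9 of 9 were higher, again with 0 called. The part of these tissues in the Dsp values of amygdala and anterior cortex was not tested.

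In cerebellum, Dsp followed markers of adjoining tissue. It had 4.35, 0.603, 3.37, 1.55 and 1.05 CPM in blast libraries 1, 2, 5, 6 and 9, against 1.47, 4.08, 1.34 and 2.18 CPM in sham libraries 10, 13, 16 and 18. The 4 libraries with the most Dsp, blast 1, blast 5, sham 13 and sham 18, were the 4 with the highest sums of the meningeal and fibroblast list, at 217, 340, 481 and 224 CPM. The other 5 had sums of 104 to 171 CPM. They were also the 4 with the most choroid plexus RNA, at sums of 1060, 2690, 3850 and 1707 CPM, against 150 to 951 CPM in the other 5. Meningeal sums ran from 107 to 340 CPM in blast and from 104 to 481 CPM in sham, with 5 of 9 genes higher and 0 called; all 11 tested choroid plexus genes were lower in blast, with 0 called. The log2 fold change of Dsp was -0.07 (SE 0.53, edgeR adjusted p = 0.990) and changed sign to 0.32 (SE 0.34) when the choroid plexus score was a covariate. The part of these tissues in the Dsp values was not tested further.

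**Figure D3:**
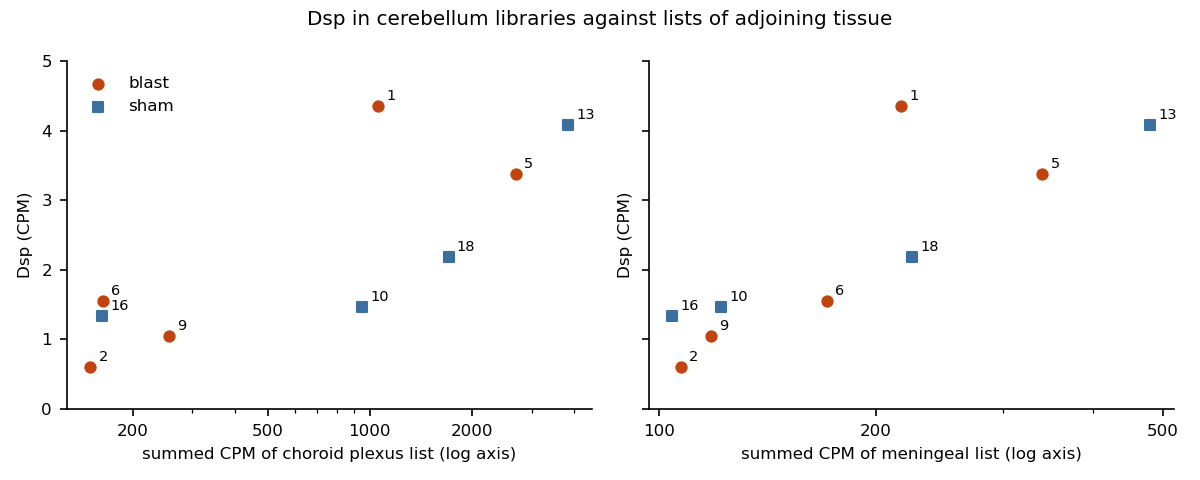
Dsp in CPM is plotted for the 5 blast (circles) and 4 sham (squares) cerebellum libraries against the summed CPM of the choroid plexus list (left) and of the meningeal list (right), both on log axes, with library numbers. Blast 1, blast 5, sham 13 and sham 18 lie to the upper right in both panels, at 2.18 to 4.35 CPM of Dsp.

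**Figure D4:**
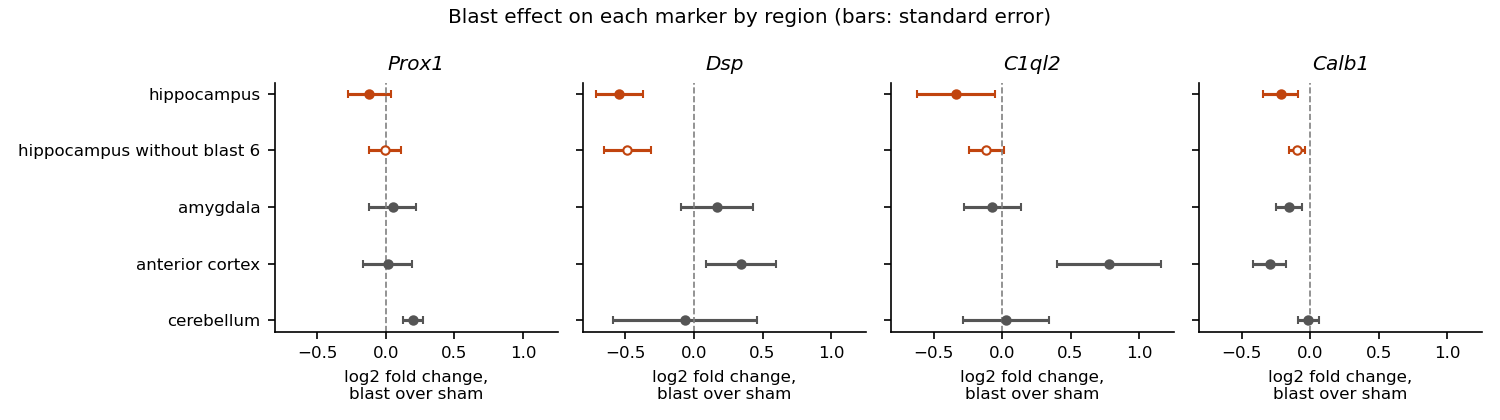
Points are log2 fold changes of blast over sham from edgeR for each marker, with bars of 1 standard error, by region and for hippocampus without blast 6 (open points). Removing blast 6 brings Prox1 to -0.0062 and C1ql2 to -0.12, while Dsp stays at -0.49; no value passed the threshold.

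Whether the blast effect differed between regions was tested in 1 fit of all 36 libraries. The test called 2 of 17120 genes (0.0117%), neither of them a marker. The adjusted p of edgeR's quasi-likelihood test was 0.968 for Prox1, 0.946 for Dsp, 0.946 for C1ql2 and 0.959 for Calb1. The opposite signs of Dsp in hippocampus and anterior cortex, a difference of -0.90 on the log2 scale, are thus not shown to differ.

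The second question was where these genes were expressed without blast. The genes were chosen with earlier results of these data known, so their regional levels are no independent check of them as markers. Levels in bulk hippocampus also cannot tell granule cells from other cells of that region. In sham libraries Prox1, Dsp and C1ql2 were highest in hippocampus and passed the test against each of the other 3 regions. Calb1 was highest in cerebellum and did not differ beyond the spread between hippocampus and amygdala. Tdo2 was near 0 in every region. Of the 5 genes named as granule cell markers, then, Calb1 was higher in hippocampus than in anterior cortex but not than in amygdala or cerebellum, and Tdo2 could not be judged at this depth.

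**Figure D5:**
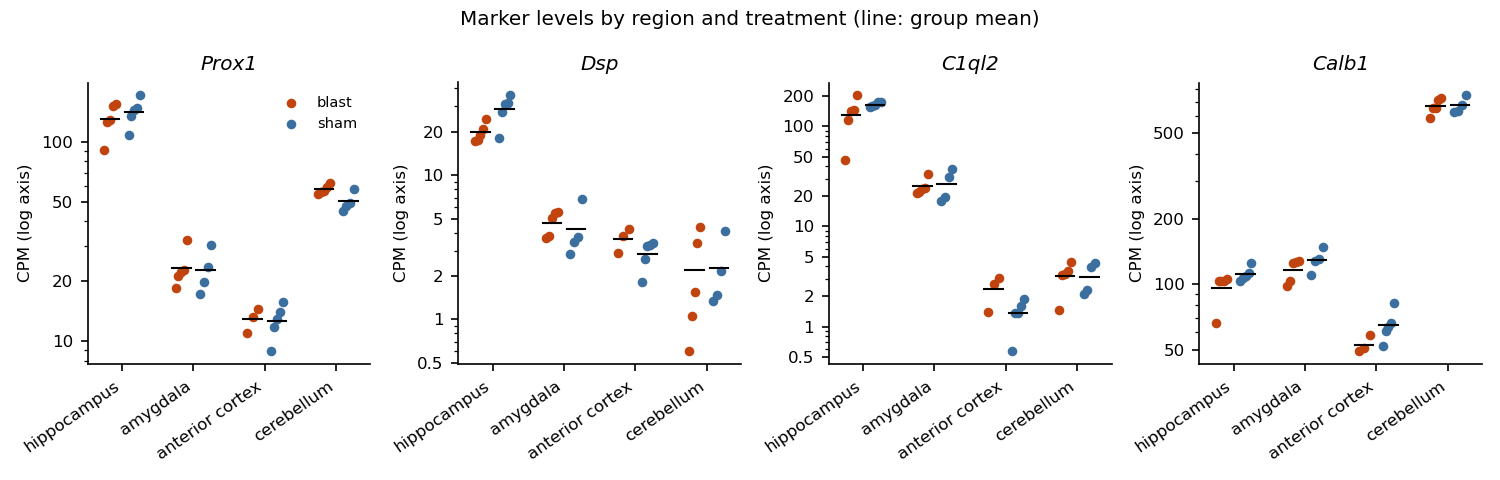
CPM on log axes for the 4 markers above the floor in the 4 regions, blast libraries to the left of sham, with a line at each group's mean. In sham, hippocampus is highest for Prox1, Dsp and C1ql2, while Calb1 is highest in cerebellum at 672 CPM.

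C1ql2 had the widest range. Its sham mean was 165 ± 8.76 CPM in hippocampus (n = 5), 26.5 ± 9.26 in amygdala (n = 4), 3.16 ± 1.10 in cerebellum (n = 4) and 1.36 ± 0.49 in anterior cortex (n = 5; SD throughout). Every neighbour in that order differed. Hippocampus exceeded amygdala by 2.71 on the log2 scale (SE 0.19, edgeR adjusted p = 1.64e-09), a 6.55-fold difference. It exceeded cerebellum by 5.83 (SE 0.24, adjusted p = 2.40e-14) and anterior cortex by 6.80 (SE 0.24, adjusted p = 7.40e-14), which is 111-fold and ranked 7 by p among 16381 genes. Cerebellum exceeded anterior cortex by 0.97 (SE 0.31, adjusted p = 0.00894), and amygdala exceeded anterior cortex by 4.09 (SE 0.25, adjusted p = 6.99e-10).

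Prox1 was at 142 ± 23.0 CPM in sham hippocampus (n = 5), 50.3 ± 5.69 in cerebellum (n = 4), 22.8 ± 5.63 in amygdala (n = 4) and 12.7 ± 2.54 in anterior cortex (n = 5). Here too each neighbour in the order differed, by edgeR. Hippocampus was above cerebellum by 1.63 on the log2 scale (SE 0.16, adjusted p = 1.69e-08), above amygdala by 2.71 (SE 0.17, adjusted p = 2.96e-10) and above anterior cortex by 3.37 (SE 0.16, adjusted p = 2.17e-12). Cerebellum was above amygdala by 1.08 (SE 0.17, adjusted p = 1.13e-05), and amygdala above anterior cortex by 0.66 (SE 0.17, adjusted p = 0.00457). Thus Prox1 and C1ql2 took different orders outside hippocampus: cerebellum had more Prox1 than amygdala but far less C1ql2, which was lower by a log2 fold change of -3.12 (SE 0.24, adjusted p = 5.22e-10).

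Dsp was at 28.9 ± 6.63 CPM in sham hippocampus (n = 5), 4.20 ± 1.81 in amygdala (n = 4), 2.86 ± 0.65 in anterior cortex (n = 5) and 2.26 ± 1.26 in cerebellum (n = 4). Hippocampus exceeded them by 2.85 (SE 0.30, edgeR adjusted p = 2.70e-07), 3.23 (SE 0.28, adjusted p = 1.12e-08) and 3.80 (SE 0.32, adjusted p = 1.85e-09) on the log2 scale. Among the other 3 regions the order was not settled. Amygdala and anterior cortex did not differ beyond the spread (0.38, SE 0.30, adjusted p = 0.360), nor did cerebellum and anterior cortex (-0.56, SE 0.32, adjusted p = 0.120), though that pair passed at -0.99 (adjusted p = 0.00968) without cerebellum sham 13. With the replicate block it passed as well, at -0.71 (adjusted p = 0.0206). Cerebellum against amygdala passed at -0.95 (SE 0.32, adjusted p = 0.0153). That call ended without amygdala sham 13 (adjusted p = 0.0920), without cerebellum sham 10 (0.0562) and without cerebellum sham 16 (0.0573). Meningeal and fibroblast genes differed alongside: 9 of 9 were lower in sham cerebellum than in sham amygdala, 7 of them called, with sums of 104 to 481 CPM in cerebellum and 294 to 606 CPM in amygdala.

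Calb1 was at 112 ± 8.59 CPM in sham hippocampus (n = 5), against 672 ± 55.4 in cerebellum (n = 4), 130 ± 15.3 in amygdala (n = 4) and 64.9 ± 11 in anterior cortex (n = 5), so the order from high to low was cerebellum, amygdala, hippocampus and anterior cortex. Hippocampus and amygdala, neighbours in that order, differed by -0.14 (SE 0.10, edgeR adjusted p = 0.267). Hippocampus was above anterior cortex by 0.69 (SE 0.09, adjusted p = 3.51e-06) and below cerebellum, at -2.46 (SE 0.10, adjusted p = 1.10e-14). Cerebellum exceeded amygdala by 2.31 (SE 0.10, adjusted p = 1.26e-13). Purkinje cell markers went with the cerebellar level: 7 of 7 tested were lower in sham hippocampus than in sham cerebellum, all 7 called. Pcp2, which defines these cells, was at 0 to 0.193 CPM in sham hippocampus and at 200 to 229 CPM in sham cerebellum.

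Tdo2 had at most 7 reads in any of the 36 libraries and none in 18 of them, 42 reads in all. Only 4 libraries exceeded the floor of 3 reads: hippocampus sham 13 and sham 18 with 4 each, amygdala sham 16 with 7 and anterior cortex sham 16 with 4. It was not tested between regions.

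The background of these regional tests is large. Of 16381 genes, 33.2% were called between hippocampus and amygdala, 16.5% being higher and 16.7% lower in hippocampus. Against anterior cortex 51% were called, with 24.7% higher and 26.3% lower in hippocampus. Against cerebellum 62.8% were called, with 31.4% in each direction. Of the 4 tested markers, 3 were called higher in hippocampus than in amygdala, 4 than in anterior cortex and 3 than in cerebellum, where Calb1 was called lower. Between amygdala and anterior cortex 31.5% of genes were called, 15.3% higher and 16.2% lower in amygdala, and 3 markers were higher. Between cerebellum and amygdala 64.7% were called, 31.7% higher and 33% lower in cerebellum, with Prox1 and Calb1 among the higher and C1ql2 and Dsp among the lower. Between cerebellum and anterior cortex 68.7% were called, 34.1% higher and 34.6% lower in cerebellum, and 3 markers were higher.

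The list of other granule cell markers took much the same direction as Prox1 and C1ql2 between hippocampus and either amygdala or anterior cortex. Of 9 tested, 9 were higher in sham hippocampus than in amygdala, 8 of them called, with a median log2 fold change of 1.07. Trpc6 was at 1.94 (edgeR adjusted p = 9.42e-10), the kinase-family gene Plk5 at 1.89 (4.03e-09) and Pdyn, which encodes the opioid precursor prodynorphin, at 1.69 (4.24e-09). Against anterior cortex 8 of 9 were called higher, with a median of 1.08. Against cerebellum 6 were called higher and 3 called lower, with a median of 2.95, and Pdyn stood at 8.0 (adjusted p = 4.01e-17). The medians over all tested genes were -0.0084, -0.0043 and -0.01 in these comparisons.

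Mossy fibre synapse genes were mixed. In sham hippocampus against amygdala, 4 of 9 were called higher and 1 lower, with a median log2 fold change of 0.08, and Grik4, a kainate receptor subunit, led at 1.61 (edgeR adjusted p = 5.32e-11). Against anterior cortex 6 of the 9 were called higher and 2 lower, and against cerebellum 5 higher and 3 lower. Of the newborn granule cell genes, 2 of 11 were called higher in hippocampus than in amygdala and 4 lower, and Dcx, which binds microtubules in migrating neurons, was lower at -0.80 (adjusted p = 1.44e-06). Against anterior cortex 2 were called higher and 5 lower, but against cerebellum 7 higher and 3 lower, with a median of 1.27.

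Desmosome genes did not follow Dsp as a list. In sham hippocampus against amygdala, 3 of 9 were called higher and 2 lower, and periplakin, Ppl, stood at 2.78 (SE 0.29, edgeR adjusted p = 2.40e-07), next to 2.85 for Dsp. Against cerebellum 3 were called higher and 4 lower, Jup being at -2.26 (adjusted p = 1.71e-16). Of the EF-hand proteins, hippocalcin, Hpca, was higher in hippocampus than in amygdala at 2.50 (adjusted p = 7.15e-12), where Calb2 was lower at -2.15 (adjusted p = 7.49e-08), and 3 of 9 were called higher and 2 lower. In the kynurenine list 0 of 8 were called higher and 2 lower, Qprt being at -1.17 (adjusted p = 0.00310).

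Levels of different genes can be set side by side per length of transcript. In sham hippocampus the deposited FPKM values (counts scaled to gene length and library total) averaged 121 ± 6.42 for C1ql2, 65.6 ± 5.04 for Calb1, 19.6 ± 3.18 for Prox1, 3.02 ± 0.69 for Dsp and 0.057 ± 0.068 for Tdo2 (SD, n = 5). In sham cerebellum Calb1 led at 394 ± 32.5 FPKM, with Prox1 at 6.95 ± 0.79, C1ql2 at 2.32 ± 0.81 and Dsp at 0.237 ± 0.13 (SD, n = 4). C1ql2 was thus the most abundant of the 5 in hippocampus, but was below Prox1 in cerebellum and, at 0.997 FPKM against 1.75, in anterior cortex.

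The genes whose pattern over the 8 groups of region and treatment was most like each marker were found among 13198 genes with a mean of 1 CPM or more. Likeness was the root mean square difference of centred log2 CPM, so a smaller value means a closer pattern. Prox1 was closest to Rem2, Otog and Vav3, at 0.176, 0.203 and 0.245. Dsp was closest to Kcp, Epha7 and Hpca, at 0.225, 0.352 and 0.363. C1ql2 had no partner as close, with Lhx9, Ghsr and Chst9 at 0.505, 0.587 and 0.671. Calb1 was closest to Esrrb, Fzd1 and Ptprr, at 0.156, 0.251 and 0.257. For Tdo2 the rule gave Heatr4, Disc1 and Erich6, but with so few reads its pattern is nearly flat and the match carries no information. These are descriptions over 8 group means. Kcp for example had 24.3, 3.94, 2.90 and 1.53 CPM in sham hippocampus, amygdala, anterior cortex and cerebellum.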

How the data were processed

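The members were taken by gene name, and they and all gene lists were chosen with earlier results of these data known. Per the labels, RNeasy columns and Qiazol gave total RNA, and a NEBNext Ultra kit the libraries; the submitters' processing notes name CASAVA. The sources used here give no aligner, counter, build or strand setting, nor the test the authors ran. Per the file headers, the authors deposited whole read counts, FPKM, log2 fold changes and p-values per gene in 1 table per region; FPKM equalled counts per length and total, within a relative tolerance of 0.0001, for the 5 members and for 78.1% to 78.7% of genes in a table. The 36 columns of normalized signal were not used here.

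Low counts were removed by filterByExpr. After TMM scaling, edgeR 4.0.16 (R 4.3.3) gave the quasi-likelihood F test and Benjamini-Hochberg adjusted p under 0.05, within each region for blast against sham, over the 18 sham libraries for regions and over all 36 for the difference between regions. Standard errors are the log2 fold change over the root of F. CPM is counts over the library total. Alternatives were DESeq2 1.42.0, other scalings, no filter, a choroid plexus covariate, a block and leaving out each library. The edgeR quasi-likelihood test was run on simulated counts, with default dispersion settings rather than those of the main fits. These counts covered only hippocampus blast against sham and sham hippocampus against sham amygdala, and not the alternatives. The 21 lists hold 166 genes, 9 of them in no table, and leave the members out. Some genes, among them C1ql3, Pdyn, Grik4 and Calb2, are in more than 1 list and are counted in each. Genes named are the members, up to 3 genes of smallest p among those that pass in a list or otherwise the 1 of smallest p, the 3 most alike per member and one defining marker per tissue. Libraries hold 15426786 to 23460322 counts, and the floor of 3 counts covers counting error only.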

Additional observations from a re-analysis of the deposited data

Results flagged for a closer look

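In each group of 4 or more libraries, the highest and lowest CPM of each marker were compared with their nearest neighbour by Dixon's criterion. Of 35 groups of values tested, 5 held a value past the 95% critical value, where chance gives about 1 in 20 if values are normally distributed. Calb1 in hippocampus blast 6 was 66.1 CPM, its nearest neighbour being 103 CPM. C1ql2 in amygdala blast 5 was 33.8 CPM, with 24.4 CPM next. The other 3 were of Tdo2 and rest on 7, 4 and 1 reads: 0.381 CPM in amygdala sham 16, 0.250 CPM in anterior cortex sham 16 and 0.0530 CPM in cerebellum sham 13. The rate of 1 in 20 does not hold for Tdo2. Where only 1 library of a group has reads, as in cerebellum sham, its value passes whatever its count.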

How the results depend on the processing

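No marker passed the threshold for blast against sham in any of 244 alternative values, the smallest adjusted p being 0.496. Signs reversed for Prox1 in hippocampus, to 0.12 with the choroid plexus covariate and 0.044 without blast 2 and blast 6, and for Dsp in cerebellum, to 0.32 with that covariate; the cause was not tested. Leaving out 1 library reversed signs within -0.20 to 0.13 (C1ql2) and -0.094 to 0.21 (Prox1) in amygdala, -0.10 to 0.11 (Prox1) in anterior cortex, and -0.12 to 0.21 (C1ql2), -0.051 to 0.041 (Calb1) and -0.47 to 0.37 (Dsp) in cerebellum. Genes called went to 10, 9 and 41 with DESeq2 in amygdala, anterior cortex and cerebellum. Without a filter they were 2 in anterior cortex and 1 in cerebellum, in the fit of all 36 libraries 0 and 4, and with the covariate 0 and 1. Leaving out 1 library gave 0 to 1 in hippocampus and amygdala and 0 to 2 in anterior cortex and cerebellum. For the difference between regions DESeq2 called 4, the replicate block 0 and leaving out 1 library 0 to 3. Of 600 alternative values between sham regions, 3 lost and 2 gained a call, all for Dsp.

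No paired analysis was possible for blast against sham because no number occurs in both groups of a region. Between regions, deviations of same-numbered sham libraries correlated at r of -0.04 to 0.15. The numbers were not taken as pairs because only 10 of 24 pairs were over 0.1. The main tests between regions therefore treat same-numbered libraries as independent. That 21 of 24 correlated best with their own number is a hint from the data, not the design, that numbers may share a source. With the replicate block the sham comparisons kept their calls except that Dsp between cerebellum and anterior cortex passed at -0.71. Depth limits Tdo2 throughout, and C1ql2 in anterior cortex.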
